A study of Homo sapiens with 12 samples.

Results

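The aminoacyl-tRNA synthetases were followed as a family of 35 genes in NT2/D1 cells, a pluripotent human embryonal carcinoma (EC) line, under low-dose 5-aza deoxycytidine (5-aza) or cisplatin. Members were taken from a list of symbols and comprised 19 genes for cytosolic enzymes and 16 for mitochondrial enzymes. Every array probe annotated to a member was read, which gave 39 probes for 34 of the 35 genes. CARS1, the cytosolic cysteinyl enzyme, was not analysed here because no named probe matched it. The only probe of WARS2, the mitochondrial tryptophanyl enzyme, was above background on no array, with log2 values of 5.27 to 5.36. The remaining 33 members, 18 cytosolic and 15 mitochondrial, were tested among 11139 genes, and the probe that represented each of them was detected on all 12 arrays.

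A synthetase joins an amino acid to its tRNA, and most amino acids have a pair of nuclear genes, one for the enzyme of the cytosol and one for the enzyme imported into mitochondria. The cytosolic glycyl and lysyl enzymes, GARS1 and KARS1, are exceptions in that each gene also supplies the mitochondrial form. Several cytosolic enzymes are bound in a multi-synthetase complex, and the others work free of it. Many cytosolic synthetase genes are known targets of ATF4, the transcription factor of the amino acid response, and MYC is a known activator of genes for protein synthesis.

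All cells were NT2/D1, grown in serum-containing medium, and all 12 Illumina HumanHT-12 v4 arrays lay on 1 BeadChip with 3 arrays per group. The controls had no drug. The label of each control array calls it untreated, while the text on the design of the series speaks of vehicle. A pair of groups received 10 nM 5-aza, a cytidine analog that, once built into DNA, holds DNA methyltransferases there. Treatment lasted 1 day, or 3 days with drug renewed daily. The last group was exposed for 6 hours to cisplatin at 0.5 µM, which forms platinum crosslinks in DNA, and was harvested after 24 hours of recovery. The arrays followed the order of the groups on the chip, so position and treatment cannot be told apart. The series describes its replicates as biological, but the labels do not say that they were separate cultures, and the p-values may then cover only technical spread. Of 12 EC and pluripotency marker genes 10 passed the filter on detection, as did 5 of 7 mesenchyme, 4 of 7 neural ectoderm, 1 of 5 trophectoderm, 2 of 3 blood and 0 of 5 endoderm markers. The 3 treatments were compared with the same controls, so their differences from control are not independent.

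After 3 days of 5-aza both alanyl enzymes were higher and several mitochondrial enzymes lower than in controls. AARS1 and AARS2 rose 1.81-fold and 1.5-fold. FARS2 fell to a level 2.70-fold lower than control and MARS2 to one 2.02-fold lower. FARSA, LARS2, IARS2 and KARS1 fell as well. The threshold for a call was a limma p-value under 0.05 after Benjamini-Hochberg adjustment over all 11139 genes, and log2 values here are background-corrected, quantile-normalized intensities. By this rule 2 of 33 members were called higher, against 10.5% of all genes, and 6 were called lower, against 6.56% of all genes. The other 25 were not called. All 10 tested EC and pluripotency markers had log2 differences below 0 at 3 days, with a median of -0.32 and 2 called lower (DNMT3B and NANOG). Of the 5 mesenchyme markers 1 was called higher (COL1A1) and 1 lower (THY1), with differences from -0.78 to 1.85, and of the 4 neural ectoderm markers 1 was called lower (DCX), with differences from -0.79 to 0.60. The part of these shifts in the synthetase values was not tested. RNA was measured in bulk, so a smaller share of cells with a transcript and less of it per cell cannot be told apart.

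The separation of the arrays was wider than the calls. In 27 of 33 members (81.8%) the 3 arrays at 3 days lay wholly above or wholly below the 3 controls, 14 above and 13 below. Among all genes this held for 48.6%, and among the genes detected on all 12 arrays for 55.1%. The members also had less spread between replicates than genes in general, with a median standard deviation (SD) of 0.13 (log2) in controls and 0.09 at 3 days, against 0.17 and 0.13 over all genes. The part of this lower spread in the separation was not tested. The changes ranged from -1.43 to 0.85 on the log2 scale, with a median of -0.0016 over the members and 0.01 over all genes. The SD of the changes over the members was 0.51, against 0.53 over all genes, and had been 0.22 at 1 day.

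**Figure D1:**
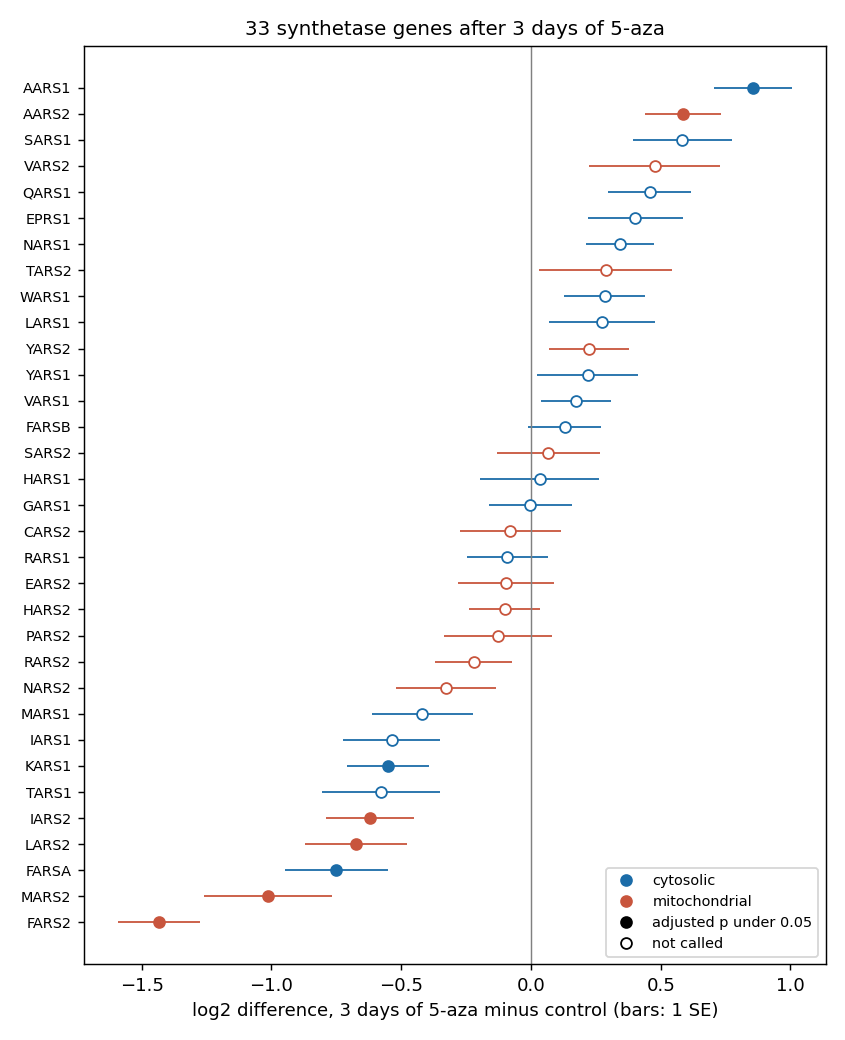
Log2 difference between 3 days of 5-aza and control for the 33 tested synthetase genes, sorted by size, with bars of 1 standard error (SE) of the limma fit and 3 arrays per group. Filled points mark adjusted p under 0.05: AARS1 and AARS2 lie at the top with 0.85 and 0.59, and FARS2 and MARS2 at the bottom with -1.43 and -1.01.

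A single variance per gene was shared by the 4 groups, and the cisplatin arrays differed from each other more than the rest, with a median SD over the members of 0.30. When the cisplatin arrays were left out of the fit, 7 members were called higher at 3 days against 20.8% of all genes, and 9 lower against 17.5% of all genes. EPRS1, NARS1, QARS1, SARS1 and VARS2 joined the genes called higher, and IARS1, MARS1 and TARS1 those called lower. All 8 genes called in the fit on 12 arrays were called in it too.

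Among the cytosolic enzymes AARS1, the alanyl-tRNA synthetase, gave the clearest rise. It read 12.60, 12.86 and 12.72 on the controls, 12.70, 12.73 and 12.73 after 1 day, 13.51, 13.56 and 13.68 after 3 days and 12.87, 13.24 and 12.88 after cisplatin. All 3 day values stood above every other array. The difference from control was 0.85 ± 0.15 (log2, SE, n = 3 per group, limma adjusted p = 0.00172), and it was called under all 24 alternative settings. SARS1, the seryl enzyme, came next at 0.58 ± 0.19 and just missed the threshold (limma adjusted p = 0.0506). Its 3 day arrays read 9.81, 9.85 and 9.75 against 8.90, 9.47 and 9.29 in controls and did not overlap with them.

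The cytosolic phenylalanyl-tRNA synthetase is built from a catalytic subunit, FARSA, and a partner subunit, FARSB. FARSA read 8.51, 8.78 and 8.21 in controls, 8.36, 8.31 and 8.16 after 1 day, 7.77, 7.69 and 7.78 after 3 days and 8.01, 8.34 and 8.78 after cisplatin. Its 3 day values lay below all other arrays, and the log2 difference from control was -0.75 ± 0.20 (limma adjusted p = 0.0199). FARSB differed by 0.13 ± 0.14 (limma adjusted p = 0.583), and the difference between the subunits was not tested. The call of FARSA was lost when control 1, control 2 or any 3 day array was left out, with adjusted p from 0.0575 to 0.0902. TARS1, the threonyl enzyme, was at -0.58 ± 0.23 (limma adjusted p = 0.0983) and lay below all controls. HARS1, GARS1, VARS1, YARS1, WARS1 and NARS1, also outside the complex, were not called and had differences of -0.00 to 0.34. For WARS1 this is the representing probe, and its other kept probe went the other way.

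The 7 cytosolic members of the multi-synthetase complex went in both directions. KARS1, the lysyl enzyme, was the only member of the complex called on 12 arrays. It read 10.50, 10.51 and 10.33 in controls, 10.26, 10.52 and 10.27 after 1 day, 9.99, 9.75 and 9.94 after 3 days and 10.26, 9.90 and 10.31 after cisplatin. The 3 day values were below those of the controls and of 1 day but reached into the cisplatin range. The log2 difference from control was -0.55 ± 0.16 (limma adjusted p = 0.0306). Without control 1, control 2 or any 3 day array the adjusted p was 0.061 to 0.124. QARS1 (glutaminyl) and EPRS1 (glutamyl-prolyl) were at 0.46 ± 0.16 and 0.40 ± 0.18, while IARS1 (isoleucyl) and MARS1 (methionyl) were at -0.54 ± 0.19 and -0.42 ± 0.19, none of them called on 12 arrays. LARS1 (leucyl) and RARS1 (arginyl) were at 0.27 and -0.09. The median over the complex was -0.09 and that over the 11 tested cytosolic enzymes outside it 0.17, but a difference between these sets was not tested.

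The alanyl enzyme was also the only mitochondrial synthetase called higher. AARS2 read 8.10, 7.95 and 8.0 in controls, 7.87, 8.10 and 8.03 after 1 day, 8.56, 8.69 and 8.56 after 3 days and 8.16, 8.52 and 8.24 after cisplatin. Its 3 day values exceeded all others, by a narrow margin over cisplatin 2. The difference from control was 0.59 ± 0.15 (limma adjusted p = 0.0153). The call was lost without control 2 (adjusted p = 0.0569), without 3 day array 2 (adjusted p = 0.069) and under median scaling (adjusted p = 0.282).

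FARS2, which charges the mitochondrial phenylalanine tRNA, fell furthest of the family. It read 8.57, 8.69 and 8.42 in controls and 7.99, 8.05 and 8.02 after 1 day. The 3 day arrays read 7.23, 6.98 and 7.17 and the cisplatin arrays 8.64, 8.28 and 8.19. The 3 groups of control, 1 day and 3 day arrays did not overlap, and the 1 day values lay between the others. At 3 days the log2 difference was -1.43 ± 0.16 (95% interval -1.77 to -1.09, limma adjusted p = 4.6e-05), the 57th lowest of 11139 genes. This call was kept under all 24 alternative settings.

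MARS2, the mitochondrial methionyl enzyme, read 9.27, 8.58 and 8.55 in controls, 8.49, 8.72 and 8.56 after 1 day, 7.87, 7.74 and 7.75 after 3 days and 8.45, 8.14 and 9.16 after cisplatin. Its 3 day arrays were the lowest, and control 1 was high among the controls. The log2 difference was -1.01 ± 0.25 (limma adjusted p = 0.0127), and without control 1 the adjusted p was 0.0708. LARS2, the mitochondrial leucyl enzyme, read 9.12, 9.30 and 9.44 in controls, 9.22, 9.27 and 9.12 after 1 day, 8.41, 8.69 and 8.74 after 3 days and 9.56, 9.16 and 8.73 after cisplatin. Its 3 day arrays stood below control and 1 day, and cisplatin 3 was as low. The log2 difference was -0.67 ± 0.20 (limma adjusted p = 0.0312). This call was lost when any control or 3 day array was left out (adjusted p = 0.0547 to 0.124).

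IARS2, the mitochondrial isoleucyl enzyme, read 12.05, 11.84 and 11.74 in controls, 11.51, 11.37 and 11.25 after 1 day, 11.20, 11.35 and 11.22 after 3 days and 11.30, 11.13 and 11.70 after cisplatin. Every treated array was below every control, and the treated groups overlapped with each other. The log2 difference at 3 days was -0.62 ± 0.17 (limma adjusted p = 0.0231), lost without control 1, control 2 or any 3 day array (adjusted p = 0.0542 to 0.106). The 10 tested mitochondrial enzymes that were not called ranged from -0.33 (NARS2, asparaginyl) to 0.48 (VARS2, valyl).

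**Figure D2:**
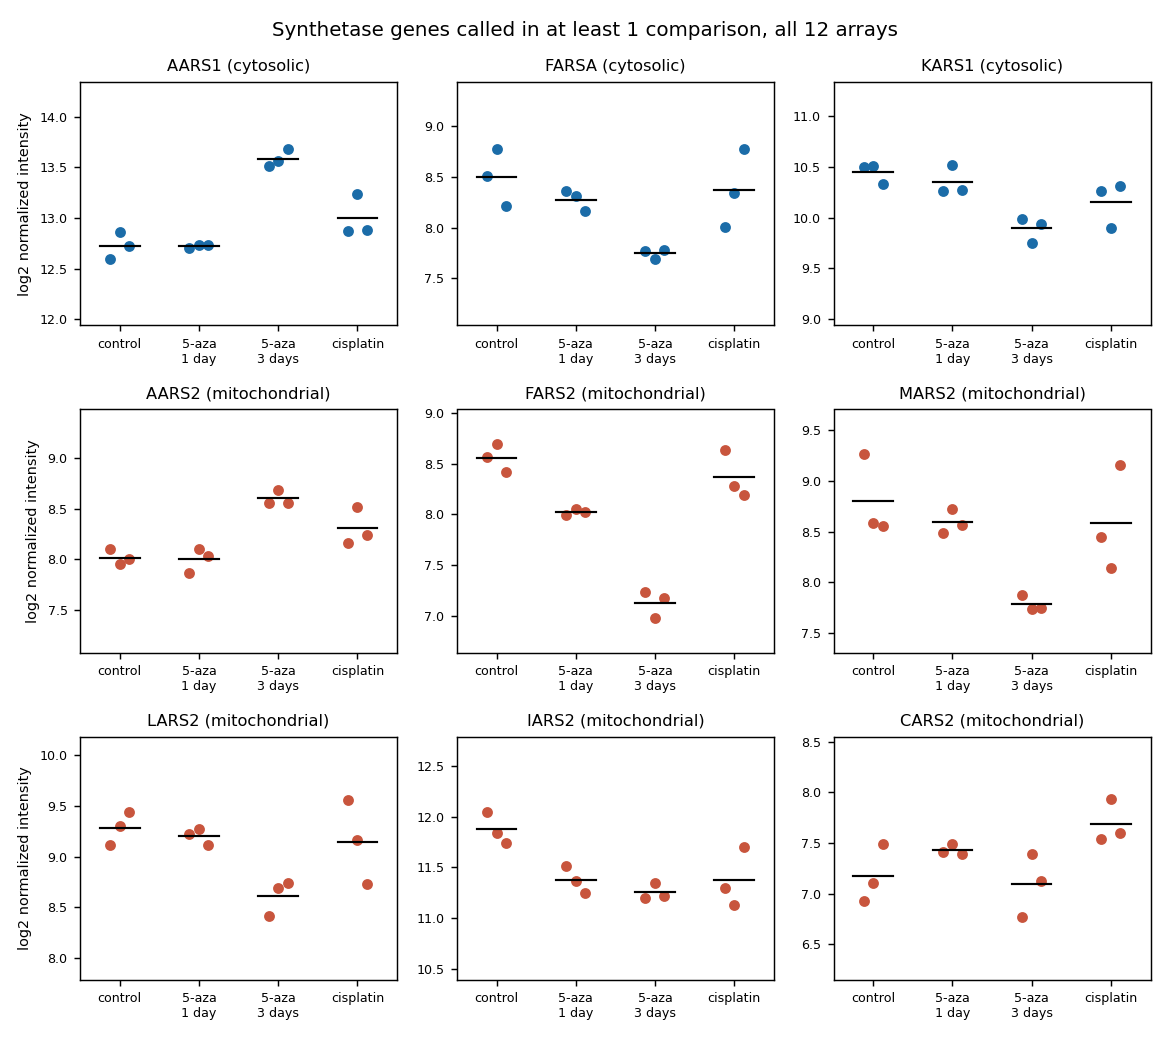
Log2 normalized intensity of the 9 synthetase genes called in at least 1 of the 5 comparisons, with 1 point per array, bars at the mean of 3 arrays and an axis of equal span in every panel. FARS2 steps down from control through 1 day to 3 days, while AARS1 and AARS2 are near control at 1 day and higher at 3 days.

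Promoters of the members were searched for a pair of motifs, TGATGNAA, bound by ATF4 with a C/EBP partner, and CACGTG, the E-box bound by MYC and related factors, on both strands and from 250 bases before to 50 bases after the RefSeq start (GRCh38.p14). Promoters were found for 30 of the 35 members. AARS2, LARS1, VARS1, VARS2 and YARS1 had none in the reference and were not searched. TGATGNAA was held by 7 of 16 cytosolic genes (43.8%), AARS1, CARS1, GARS1, IARS1, MARS1, NARS1 and TARS1, and by 1 of 14 mitochondrial genes (7.14%), YARS2, against 4.46% of 27305 genes. CACGTG was held by 1 of 16 cytosolic genes (6.25%), IARS1, and by 3 of 14 mitochondrial genes (21.4%), CARS2, EARS2 and MARS2, against 8.77% of all genes. The motifs do not overlap where both occur, in IARS1. The following promoters, from RefSeq and written 5′ to 3′ on the strand of the gene with motif matches in capitals, are shown because genes with the same TGATGNAA match had 3 day differences of opposite sign, of which only that of AARS1 was called, and because MARS2, with an E-box, was called lower at 3 days:
AARS1, chr16:70289457-70289756, minus strand: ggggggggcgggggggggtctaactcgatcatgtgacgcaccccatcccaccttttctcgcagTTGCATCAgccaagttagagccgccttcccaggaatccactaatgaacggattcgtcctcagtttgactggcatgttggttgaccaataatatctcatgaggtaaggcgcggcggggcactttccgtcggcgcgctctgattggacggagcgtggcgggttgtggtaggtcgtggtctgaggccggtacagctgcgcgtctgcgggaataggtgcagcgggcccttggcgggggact
IARS1, chr9:92293648-92293947, minus strand: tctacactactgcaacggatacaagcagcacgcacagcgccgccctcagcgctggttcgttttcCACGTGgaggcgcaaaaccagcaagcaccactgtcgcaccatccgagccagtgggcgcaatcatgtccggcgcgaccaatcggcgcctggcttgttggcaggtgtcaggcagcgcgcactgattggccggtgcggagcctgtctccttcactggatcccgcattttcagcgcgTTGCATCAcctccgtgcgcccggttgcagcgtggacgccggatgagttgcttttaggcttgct
TARS1, chr5:33440715-33441014, plus strand: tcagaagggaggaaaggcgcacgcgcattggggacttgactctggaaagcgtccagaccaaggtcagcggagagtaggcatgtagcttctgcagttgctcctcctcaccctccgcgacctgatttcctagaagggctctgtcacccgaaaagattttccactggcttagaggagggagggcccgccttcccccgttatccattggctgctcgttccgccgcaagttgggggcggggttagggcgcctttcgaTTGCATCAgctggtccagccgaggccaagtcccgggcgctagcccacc
NARS1, chr18:57621787-57622086, minus strand: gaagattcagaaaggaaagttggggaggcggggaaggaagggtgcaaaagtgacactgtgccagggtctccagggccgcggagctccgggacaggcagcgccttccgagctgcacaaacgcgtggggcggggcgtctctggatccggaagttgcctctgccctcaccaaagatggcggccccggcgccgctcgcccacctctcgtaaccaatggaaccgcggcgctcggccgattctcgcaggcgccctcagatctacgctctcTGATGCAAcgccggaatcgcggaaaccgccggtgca
MARS2, chr2:197705119-197705418, plus strand: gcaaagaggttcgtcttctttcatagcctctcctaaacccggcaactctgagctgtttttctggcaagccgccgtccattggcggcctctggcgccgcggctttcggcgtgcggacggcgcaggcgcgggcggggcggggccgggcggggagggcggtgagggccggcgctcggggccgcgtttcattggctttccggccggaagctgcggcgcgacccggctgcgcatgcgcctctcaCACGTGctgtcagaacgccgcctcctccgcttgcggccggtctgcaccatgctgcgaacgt

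The match in AARS1, IARS1 and TARS1 is TTGCATCA, which is the reverse complement of TGATGCAA, the match in NARS1. TARS1, CARS1, GARS1 and CARS2 each have a further listed start whose window holds no match. At 3 days AARS1 was called higher, NARS1 was at 0.34 ± 0.13 (limma adjusted p = 0.0904), IARS1 at -0.54 ± 0.19 (limma adjusted p = 0.0647) and TARS1 at -0.58 ± 0.23. Of the others with the motif, GARS1 was at -0.00, MARS1 at -0.42 and YARS2 at 0.22. Holders of TGATGNAA thus lay on both sides of control. Of the holders of CACGTG only MARS2, at -1.01, was called at 3 days. EARS2 was at -0.10 (limma adjusted p = 0.774) and CARS2 at -0.08 (limma adjusted p = 0.825), and IARS1 was not called either. FARS2, FARSA, SARS1, KARS1, LARS2 and IARS2 held neither string in the windows searched. HARS1 and HARS2 are divergent neighbours on chromosome 5 whose starts lie 85 bases apart, and they differed from control by 0.03 and -0.10. A match is a string in the window and was not tested for binding.

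The cytosolic and mitochondrial enzymes were next set against each other. At 3 days 1 of 18 cytosolic members was called higher and 2 lower, with a median log2 difference of 0.15. KARS1, among those called lower, and GARS1 were counted as cytosolic although each also supplies the mitochondrial form. Of 15 mitochondrial members 1 was called higher and 4 lower, with a median of -0.10. Of all genes 10.5% were called higher and 6.56% lower. In 10 cytosolic genes the 3 day arrays lay above all controls and in 5 below, and in 4 mitochondrial genes above and in 8 below, where 48.6% of all genes did not overlap in either direction. The mean change over the cytosolic genes was 0.03, 0.06 and 0.05 on the 3 day arrays, and that over the mitochondrial genes -0.26, -0.19 and -0.16. The class medians differed by 0.25, with no test made of a score over members. With median scaling in place of quantile normalization all genes shifted by -0.17 in the median and the cytosolic median by -0.12 instead of 0.15, so that its sign turned, and the mitochondrial median was then -0.38. Over all genes the calls were then 622 higher and 1102 lower, against 1170 and 731.

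Pairs of enzymes for the same amino acid allowed the change of each gene to be compared with that of its counterpart on the same arrays. There were 14 pairs, with FARSA and FARSB each set against FARS2. EPRS1, the glutamyl-prolyl enzyme, was paired only with EARS2, the mitochondrial glutamyl enzyme. PARS2, the mitochondrial prolyl enzyme, was left unpaired. Each SE here came from an ordinary linear fit of the difference between the genes of a pair, not from limma. That fit had 8 residual degrees of freedom, and no p-value was computed from it. The cytosolic change was the higher in 11 of 14 pairs at 3 days and in 9 of 14 at 1 day. The difference, in either direction, exceeded 2 SE in 8 of 14 pairs at 3 days and in 1 at 1 day. The same counts over other pairs of genes were not made. FARSB exceeded FARS2 by 1.56 ± 0.17 (log2, SE) and LARS1 exceeded LARS2 by 0.95 ± 0.10. FARSA and FARS2 both fell, with FARS2 lower by a further 0.68 ± 0.26. Similar gaps were seen for asparagine, where NARS1 exceeded NARS2 by 0.67 ± 0.19, and for methionine, where MARS1 exceeded MARS2 by 0.59 ± 0.19. Threonine went the other way, with TARS1 at -0.58 and TARS2 at 0.29, a difference of -0.87 ± 0.43. IARS1 and IARS2 differed by 0.08 ± 0.06 and YARS1 and YARS2 by -0.01 ± 0.29, both within 2 SE. The alanine pair was the only one with both genes called higher, and AARS1 exceeded AARS2 by 0.27 ± 0.11.

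**Figure D3:**
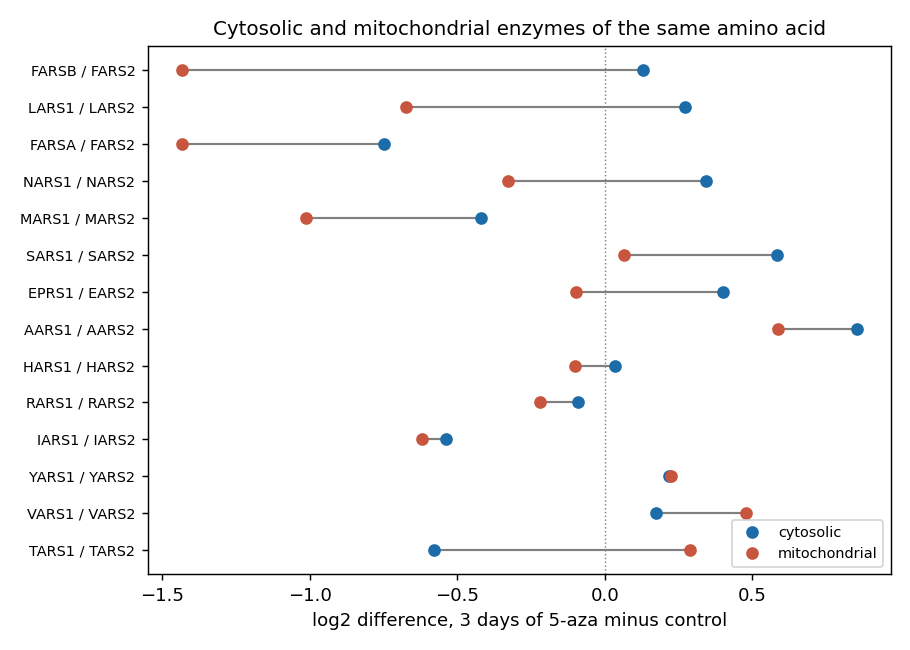
Log2 difference between 3 days of 5-aza and control for the cytosolic and the mitochondrial enzyme in each of 14 pairs. A line joins the enzymes of a pair, and the pairs are sorted by the gap. In 11 pairs the cytosolic point lies to the right, with the widest gap, 1.56, between FARSB and FARS2.

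After 1 day of 5-aza 0 of 33 members were called, as was the case for 0% of all genes in either direction. With array weights 1 mitochondrial member, FARS2, was called lower, when 1.14% of all genes were called in either direction. In the main fit 3 members, FARS2, IARS2 and IARS1, had an unadjusted limma p under 0.05, as had 622 of 11139 genes. FARS2 stood lowest at -0.54 ± 0.16 (limma adjusted p = 0.813), followed by IARS2 at -0.50 ± 0.17 and IARS1 at -0.44 ± 0.19. In 12 of 33 members (36.4%) the 1 day arrays did not overlap with controls, 4 above and 8 below, against 24.2% of all genes. AARS1 and AARS2 were at -0.01 and -0.02 with intervals of -0.33 to 0.31 and -0.33 to 0.30.

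The comparison of 3 days with 1 day of 5-aza asked which changes came later. AARS1 was higher at 3 days by 0.86 ± 0.15 (limma adjusted p = 0.00255) and AARS2 by 0.60 ± 0.15 (limma adjusted p = 0.0207), 2 of 33 against 5.82% of all genes called higher. FARS2 was lower by a log2 difference of -0.89 ± 0.16 (limma adjusted p = 0.00274), 1 of 33 against 3.17% of all genes called lower. The AARS2 call was lost when any single 1 day or 3 day array was left out, with adjusted p from 0.0509 to 0.101, and under median scaling (adjusted p = 0.224). IARS2 differed by -0.12 ± 0.17 and IARS1 by -0.10 ± 0.19 between the times, and neither was called. MARS2 was at -0.80 ± 0.25 (limma adjusted p = 0.0573).

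No synthetase was called after cisplatin. With 0 of 33 called, against 0.916% of all genes called higher and 0.512% called lower, and 6 members at an unadjusted limma p under 0.05 (2435 of 11139 genes), the largest differences from control were TARS1 at -0.81 ± 0.23 (limma adjusted p = 0.0881) and SARS1 at 0.63 ± 0.19 (limma adjusted p = 0.104). TARS1 read 11.77, 10.69 and 11.46 after cisplatin against 12.01, 12.15 and 12.20 in controls, with cisplatin 2 far below its replicates. NARS2 was at -0.61 ± 0.19 and CARS2 at 0.51 ± 0.19. In 7 of 33 members (21.2%) the arrays did not overlap with controls, against 16.3% of all genes. Leaving out cisplatin 1 brought the calls to 5 members (15.2%), 3 higher (SARS1, TARS2 and YARS1) and 2 lower (NARS2 and TARS1), when 27.5% of all genes were called. Without cisplatin 3 there was 1 call, IARS2, when 4.22% of all genes were called.

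The treatments were also compared directly. After 3 days of 5-aza AARS1 was higher than after cisplatin by 0.58 ± 0.15 (limma adjusted p = 0.0144), 1 of 33 against 15% of all genes. FARS2 (-1.25 ± 0.16, limma adjusted p = 0.000148), MARS2 (-0.79 ± 0.25, limma adjusted p = 0.031), FARSA (-0.63 ± 0.20, limma adjusted p = 0.0347) and CARS2 (-0.59 ± 0.19, limma adjusted p = 0.0394) were lower, 4 of 33 against 10.1% of all genes. CARS2, the mitochondrial cysteinyl enzyme, read 6.93, 7.11 and 7.49 in controls, 7.41, 7.49 and 7.39 after 1 day, 6.77, 7.39 and 7.13 after 3 days and 7.54, 7.93 and 7.60 after cisplatin. Its cisplatin arrays were above all others and its 3 day arrays overlapped with the controls. The FARS2 call was kept under all 23 alternatives. That of AARS1 was lost without 3 day array 3 (adjusted p = 0.0608) and under median scaling (adjusted p = 0.0961). With only the 6 arrays compared (adjusted p = 0.102) or with array weights (adjusted p = 0.0699) AARS1 was not called either. Those of MARS2 and FARSA were lost without any single 3 day array and without cisplatin 3, and that of FARSA also without cisplatin 2 or 1 day array 2, with adjusted p of 0.0508 to 0.108. That of CARS2 was lost without 3 day array 1 or 3, cisplatin 2, control 2 or any 1 day array (adjusted p = 0.0533 to 0.169). MARS2, FARSA and CARS2 were also not called with only the 6 arrays compared, with array weights or without a filter. CARS2 was lost as well with the deposited normalized values (adjusted p = 0.0545) and with an intensity trend and robust prior (adjusted p = 0.0502).

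**Figure D4:**
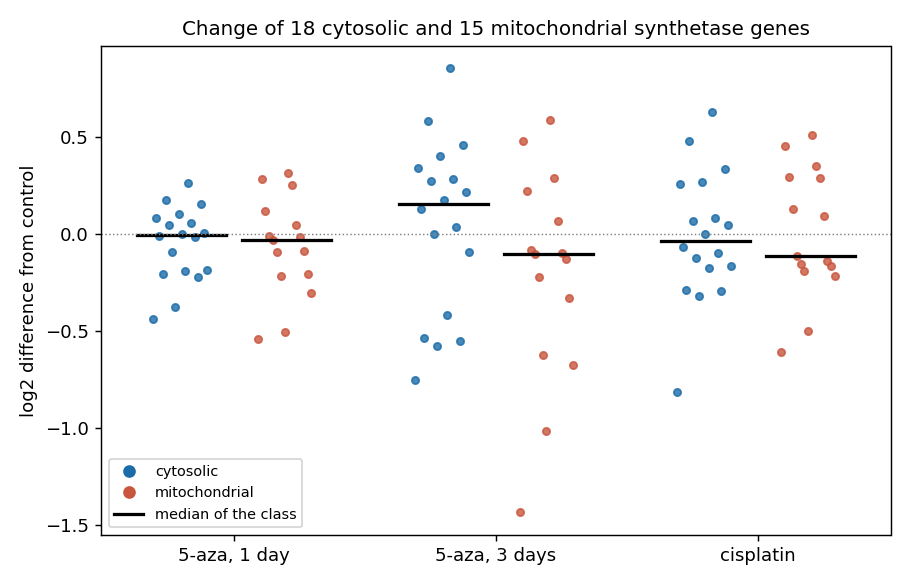
Log2 difference from control of each of the 18 cytosolic and 15 mitochondrial synthetase genes under each treatment, with 1 point per gene and a bar at the median of the class. At 3 days of 5-aza the medians are 0.15 and -0.10, and the points spread further than at 1 day or after cisplatin.

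A moderated F test over the 3 treatments against control called AARS1 (limma adjusted p = 0.00355), AARS2 (0.026), FARS2 (0.000145), MARS2 (0.0341) and SARS1 (0.0324). Several members had a further probe. The other kept probe of WARS1, the tryptophanyl enzyme and a known interferon-inducible gene, went against the representing probe at 3 days, with -0.44 ± 0.17 (limma adjusted p = 0.0968) against 0.28 ± 0.16. It was called lower against cisplatin (-0.59 ± 0.17, limma adjusted p = 0.025), so no direction is given for WARS1. Counts and medians over the members use the representing probe, whose 3 day arrays lay above the controls. Those of the other probe lay below them. The other kept probe of MARS2 was detected on 3 arrays only and differed by -0.08 ± 0.26, so the fall of MARS2 rests on a single probe. The calls of AARS1, AARS2, FARS2, FARSA, KARS1, LARS2, IARS2, CARS2 and SARS1 also rest on a single probe each, the only probe annotated to the gene. The other kept probe of VARS1 was at 0.13 ± 0.22, beside 0.17 ± 0.14 for the brighter probe. The further probes of FARSB and IARS1 were detected on no array.

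Genes that act beside the synthetases were read from related lists in the same fit. The counts that follow stand beside 10.5% of all genes called higher and 6.56% lower at 3 days. Of 15 tested genes of the amino acid response 7 were called higher at 3 days and 1 lower, with a median of 0.56. TRIB3, a pseudokinase that restrains ATF4, was highest at 2.52 ± 0.29 (limma adjusted p = 5.67e-05). Its controls read 6.65, 6.07 and 6.32, near the lowest detected signal of those arrays (6.3, 6.45 and 6.28), so the size of its rise is uncertain. The transcription factors DDIT3 and CEBPB and the eIF2 phosphatase subunit PPP1R15A were at 2.41, 1.74 and 1.57. The ATF4 transcript itself was at 0.05 ± 0.17 (limma adjusted p = 0.868). Of 12 genes for amino acid synthesis and uptake 3 were called higher, the transporter subunits SLC7A5 and SLC3A2 and asparagine synthetase ASNS, at 0.95, 0.78 and 0.59. MYC fell by 2.01 and its target ODC1, the first enzyme of polyamine synthesis, by 1.55, and the other 4 tested genes of the MYC list were not called.

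Beside the mitochondrial synthetases 1 of 8 tested mitochondrial translation factors was called higher, MTIF3 at 0.76 ± 0.22 (initiation), and 1 lower, TUFM at -0.87 ± 0.28 (elongation), again beside 10.5% and 6.56% of all genes. None of 3 tested genes for the amidotransferase that makes mitochondrial glutaminyl-tRNA and for formylation was called. Of 4 tested paralogs and editing or selenocysteine enzymes DTD1, which removes D-amino acids from tRNA, was called lower at -0.67 ± 0.20. None of 6 cytosolic elongation factors was called at 3 days, while EIF5A was called higher after cisplatin (1.28 ± 0.29, limma adjusted p = 0.0487). Of all genes 0.916% were called higher after cisplatin. EIF5A read 10.13, 11.5 and 11.48 on the cisplatin arrays against 9.56, 9.8 and 9.91 in controls, so cisplatin 1 rose much less than its replicates. Of 3 scaffold genes of the multi-synthetase complex AIMP1 did not pass the filter on detection and AIMP2 and EEF1E1 were not analysed here. The 5 tested interferon-responsive genes listed beside WARS1 were all called higher at 3 days, ISG15 by at least 3.19-fold and TAP1 by at least 1.89-fold, since both were undetected in controls.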

How the data were processed

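RNA from NT2/D1 cells was hybridized to bead arrays and summarised by the authors in GenomeStudio (version not given in the sources used here). The deposited table holds the mean intensity of 47231 probes on a linear scale, not normalized, with a detection p-value that the authors' software set against negative control beads. The deposited normalized table holds intensity after the authors' quantile normalization and was used as an alternative. Intensities were background-corrected with limma's nec (offset 16, with the negative controls estimated through the detection p-values), quantile-normalized and converted to log2 in limma 3.58.1 (R 4.3.3). Median raw intensity was 154.3 to 188.4 per array, and 3 arrays per group limit the precision. Probes with detection p under 0.05 on at least 3 arrays were kept, the brightest kept probe represented each gene (11139 genes), and probes were named from the platform annotation. Group means were fitted with lmFit on 8 residual degrees of freedom, and eBayes added 5.64 from the prior (two-sided tests). "At least" folds used, for an undetected group, the lowest detected signal of each array. The script was tested on simulated data. Every member was accounted for, with values on all arrays for those called in any comparison, and at most 4 called genes were named per related list. Members and lists were chosen with earlier results of these data known. Replicate numbers did not pair the arrays (correlations of -0.52 to 0.22 between same-numbered arrays, 2 of 18 over 0.1). Changes of normalization, filter, probe rule, fit, weights, threshold and single arrays were tried, and 2 checks were added after the data were seen: the share of non-overlapping genes among those detected on all arrays, and the share of genes called without cisplatin arrays.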

Additional observations from a re-analysis of the deposited data

Results flagged for a closer look

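For 3 members the effect of 5-aza differed between its times by a test of the difference itself. AARS1 was higher after 3 days than after 1 day by 0.86 (log2, limma adjusted p = 0.00255, 3 arrays per group), and all 3 day arrays were above all 1 day arrays. AARS2 was higher by 0.60 (limma adjusted p = 0.0207) with the same separation. FARS2 differed by -0.89 (limma adjusted p = 0.00274), with every 3 day array below every 1 day array.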

How the results depend on the processing

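None of 16 calls of a named member turned its direction under 24 alternative settings. Counts of called members (cytosolic, mitochondrial) at 3 days were 3 and 5. They were 7 cytosolic with the deposited normalized values, 5 with median scaling, 5 with an intensity trend and robust prior, and 10 with only the 6 arrays compared, without cisplatin arrays or with array weights. An adjusted p under 0.01 left 1 and 1. Leaving out single arrays gave 1 to 9 and 2 to 6. Array weights gave 1 mitochondrial call at 1 day, when 1.14% of all genes were called. They gave 1 cytosolic call for cisplatin, when 5.68% of all genes were called. For cisplatin single arrays left out gave 0 to 3 and 0 to 2. For 3 days against 1 day, 1 cytosolic call became 2 with median scaling or no filter, 9 with 6 arrays or array weights and 8 without cisplatin arrays, and 2 mitochondrial calls became 4, 4 and 4, or 1 at an adjusted p under 0.01 (single arrays left out: 1 to 4 in both classes). For 3 days against cisplatin, 2 cytosolic calls became 1 with median scaling or a replicate block and 0 with 6 arrays, array weights or an adjusted p under 0.01 (single arrays: 0 to 4). The 3 mitochondrial calls became 5 with median scaling and 1 without a filter, with 6 arrays, array weights or an adjusted p under 0.01 (single arrays: 1 to 5). With the replicate block the 3 day counts were 2 and 4, KARS1 (adjusted p = 0.0541) and LARS2 (0.0545) being lost, as was FARSA against cisplatin (0.0552), and it changed no other call of a named member. The cytosolic minus mitochondrial median was 0.03 at 1 day (0.13 with median scaling, -0.066 to 0.052 with single arrays left out), 0.25 at 3 days (0.18 with the mean of kept probes, 0.23 to 0.32) and 0.08 for cisplatin (-0.015 with median scaling, 0.0022 without a filter, -0.11 to 0.17). Over all genes the 3 day calls were 1170 higher and 731 lower, and became 2315 and 1947 without cisplatin arrays and 2053 and 1715 with 6 arrays. Apart from settings that change the number of arrays or the threshold, the cause was not tested. Dim probes such as the further MARS2 probe limit what signal over background can show.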
